A study of Mus musculus with 30 samples.

Results

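The retinal pigment epithelium (RPE) is the pigmented cell layer behind the retina that recycles the visual chromophore and takes up shed photoreceptor tips. The corneal epithelium is the stratified, transparent layer on the front of the eye. Its differentiated cells make the cornea-type keratin Krt12, while Krt15 and Krt13 are made by basal and stratified epithelia more widely, among them those of the limbus and conjunctiva. RPE is a simple epithelium with its own keratins, among them Krt8, so keratins of stratified layers mark surface epithelium in a dissected RPE sample.

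RNA of 30 RPE samples was compared by its Krt12 level: the 10 samples highest in Krt12 FPKM (read fragments scaled by transcript length and by library depth) against the 10 lowest, with the 10 samples in between kept aside. Each sample was 1 eye of 1 male wild-type C57BL/6 mouse aged 10 to 13 weeks, collected at zeitgeber time (ZT) 0, 2, 4, 9, 14 or 19 h, 5 mice each. No sample was treated or carried an altered allele. Cornea, iris and lens had been taken off, the retina peeled away, and clumps of RPE lifted from the choroid with forceps, per the labels' protocol. The members of both groups were chosen by their own Krt12 values, so Krt12 is described and not tested between them. A p value for another gene is one of association with the sample's Krt12 level, not of an effect of any treatment.

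The 10 Krt12-high samples held 1 of 5 mice from ZT0, 3 from ZT2, 2 from ZT4, 2 from ZT9 and 2 from ZT14, and none from ZT19. The 10 Krt12-low samples held 3 mice from ZT4, 1 from ZT9, 2 from ZT14 and 4 from ZT19, and none from ZT0 or ZT2. Both groups had 5 left and 5 right eyes. The groups therefore differ in time of day as well as in Krt12, and most calls were lost in a fit with the time point as a term. ZT0, ZT2 and ZT19 were each present in only 1 of the groups, so that fit compares the groups through ZT4, ZT9 and ZT14 alone. It thus rests on fewer samples and has less power than the fit without the term. Why a given call was lost with the term was not tested. Sequencing depth, estimated from the steps between low FPKM values, was 15.1 to 20.7 M reads (M: mega) in the high group and 15.3 to 22.9 M in the low group. One low-group library stood apart: in ZT14 replicate 3, 557 genes stood at 0 that have a median of 10 FPKM or more elsewhere, while 29 samples had 1 to 23 genes of that kind.

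Krt12 lay between 2906 and 4704 FPKM in the high group, with a median of 4077. It lay between 3.42 and 861 FPKM in the low group, with a median of 338. The last sample inside the high group was ZT2 replicate 4 at 2906 FPKM, and the first outside was ZT0 replicate 3 at 2863 FPKM, so the upper border runs through a dense stretch of samples. At the lower border ZT14 replicate 3 was inside at 861 FPKM and ZT19 replicate 5 outside at 888 FPKM. Within the low group the values fell into an upper set of 503 to 861 FPKM in 5 samples and a lower set of 3.42 to 174 FPKM in the other 5.

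Krt12 also differed among the time points. At ZT19 the 5 mice had 534, 174, 86.5, 3.42 and 888 FPKM, and at ZT0 the lowest was 2133 and the highest 3394 FPKM, so these time points did not overlap. At ZT4 the samples split widely, with 4462 and 4704 FPKM in 2 mice and 541, 503 and 61.4 FPKM in the other 3. The F statistic over 6 time points was 3.77 on log2(FPKM + 1) (permutation test, n = 30, p = 0.0105, adjusted over 2 tests 0.021). Without ZT19 replicate 3 the adjusted p was 0.106, without ZT19 replicate 2 it was 0.0562, and on FPKM without a log it was 0.158. Right eyes had a mean log2(Krt12 FPKM + 1) of 9.85 in 14 mice and left eyes 10.30 in 16 mice, a difference of -0.45 (permutation test, two-sided, p = 0.622). Eyes were unevenly spread over the time points, with all 5 of ZT4 from the left side. The sign of the eye difference turned to 0.14 without ZT19 replicate 3.

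**Figure D1:**
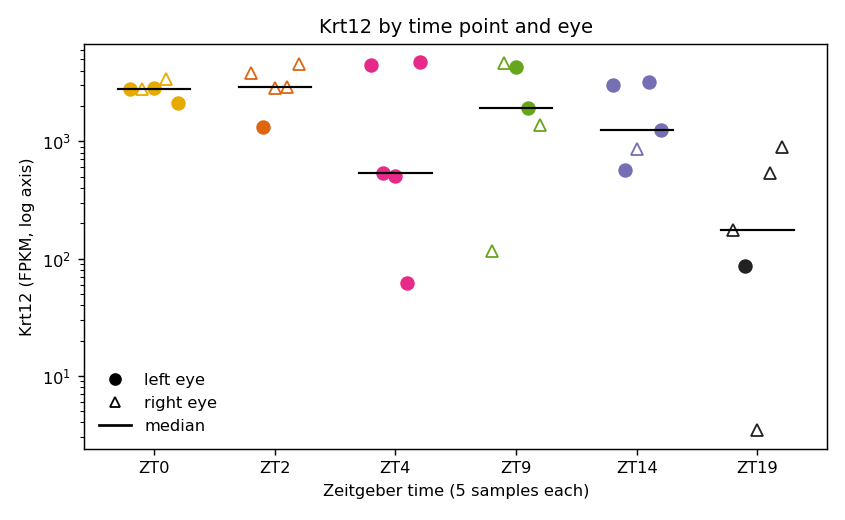
Krt12 FPKM on a log axis for 30 samples by zeitgeber time, with filled circles for left eyes, open triangles for right eyes and a line at the median of 5. ZT19 lies at or below 888 FPKM, ZT0 at or above 2133, and ZT4 splits into 2 high and 3 low samples.

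The name "cornea-poor" was checked against the other surface markers, and it does not hold for all of them. Krt15 was still abundant in the low group, with 743 to 5970 FPKM and a median of 1057, against 1378 to 4282 FPKM and a median of 2081 in the high group. Calml3, a calmodulin-like protein of stratified epithelia, had 261 to 1864 FPKM in the low group, with a median of 683. In the high group it had 1329 to 3309 FPKM, with a median of 2363. Both markers overlapped between the groups, Calml3 only through ZT14 replicate 2, since the rest of the low group had at most 783 FPKM. Of the 10 samples highest in Krt15, 3 were in the Krt12-high group and 1 was in the Krt12-low group, namely ZT14 replicate 2, which had 5970 FPKM of Krt15 beside 564 FPKM of Krt12. Krt12 per Krt15 was 1.00 to 2.98 in the high group (median 1.86) and 0.00382 to 1.16 in the low group (median 0.123). This ratio holds the Krt12 value that ranked the samples, so a difference between the groups is built into it. Together the genes of 6 surface epithelium lists, Krt12 included, made up 2.09% to 3.67% of summed FPKM in the high group (median 3.15%). In the low group they made up 0.500% to 2.87% (median 0.757%). The groups met in this share only through ZT14 replicate 2, since the rest of the low group had at most 0.905%. Krt12 ranked the samples, so part of this difference is built in too. The low group was therefore low in Krt12 without being free of surface epithelium transcripts, and the groups are called Krt12-high and Krt12-low here.

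**Figure D2:**
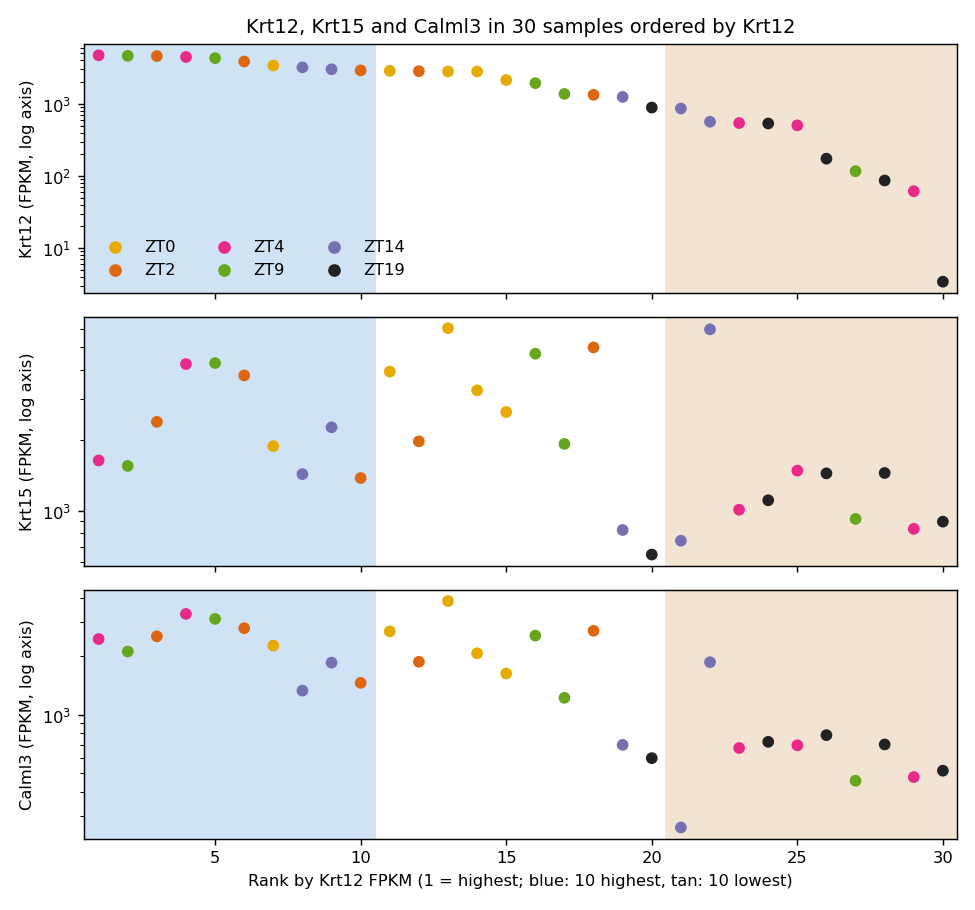
FPKM of Krt12, Krt15 and Calml3 (log axes) in 30 samples ordered by Krt12, coloured by time point, with the 10 highest on blue and the 10 lowest on tan. Krt12 falls from 4704 to 3.42 FPKM along the order, while Krt15 stays at or above 648 FPKM in every sample.

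The windows around the transcription start are printed for 3 genes on which the results turn: Krt12, the gene that ranks the samples, Krt5, the keratin with the largest difference among the other keratins, and Aqp5, a water channel gene outside the lists that separated the groups. The sequences are RefSeq windows on GRCm38.p6 of 300 bases (chr11:99422210-99422509, chr15:101712856-101713155 and chr15:99590778-99591077, on the minus, minus and plus strand), and capitals mark a TATA box word (TATAAA), an AP-1 word (TGANTCA) and a Kruppel-like factor word (CACCC), each on either strand.
Krt12: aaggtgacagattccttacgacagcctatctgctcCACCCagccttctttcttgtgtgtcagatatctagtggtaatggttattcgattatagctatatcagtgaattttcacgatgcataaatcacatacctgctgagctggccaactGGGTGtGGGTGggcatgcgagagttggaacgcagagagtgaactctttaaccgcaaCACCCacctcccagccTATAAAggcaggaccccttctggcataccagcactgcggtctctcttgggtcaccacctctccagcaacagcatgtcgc
Krt5: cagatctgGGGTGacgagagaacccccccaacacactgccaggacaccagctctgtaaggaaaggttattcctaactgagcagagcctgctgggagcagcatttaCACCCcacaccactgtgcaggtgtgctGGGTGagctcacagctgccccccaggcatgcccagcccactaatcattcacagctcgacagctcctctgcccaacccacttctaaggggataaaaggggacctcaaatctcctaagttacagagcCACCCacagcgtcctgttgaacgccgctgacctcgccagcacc
Aqp5: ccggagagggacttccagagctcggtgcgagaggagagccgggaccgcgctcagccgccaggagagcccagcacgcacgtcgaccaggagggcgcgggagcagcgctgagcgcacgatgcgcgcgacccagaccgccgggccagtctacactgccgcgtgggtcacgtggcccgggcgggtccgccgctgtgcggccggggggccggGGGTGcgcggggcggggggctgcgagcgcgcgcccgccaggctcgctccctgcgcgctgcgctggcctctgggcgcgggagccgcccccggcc
The Krt12 window holds 1 TATAAA, which begins at base -29 from the start, and 4 CACCC words. The Krt5 window holds 4 CACCC words and the Aqp5 window 1, and neither holds the other words. Over all 32851 RefSeq windows, 13.6% hold TATAAA, 7.81% hold TGANTCA and 57.5% hold CACCC, so CACCC is a common word. Of 74 surface list genes 41 had a window (49 windows), of which 24.5% held TATAAA, 16.3% TGANTCA and 77.6% CACCC. These are descriptions of letters, and no factor binding was measured.

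Corneal epithelial products such as Slurp1 and Aldh3a1 were higher in the Krt12-high samples, and the genes called lower included Ttr, Eng and Lyz2. Of 16740 genes tested (Krt12 left out), 734 differed between the groups (4.38%, limma, adjusted p below 0.05), 538 of them higher (3.21%) and 196 lower (1.17%) in the Krt12-high samples. The lower count depended on the scale: it was 79, beside 655 higher, after rescaling without the surface lists, and 101, beside 604 higher, on the TPM scale. It was 111 to 263 when 1 sample was left out, the lowest without ZT9 replicate 1. Values of the groups did not overlap for 41 genes that were higher (0.245% of the genes tested) and for 2 that were lower (0.0119%). The 2 lower ones, Tspan3 and Rabac1, were looked up after the count was seen; they fell by 0.63 and 0.48. At an unadjusted p below 0.05 there were 1557 higher (9.30%) and 1292 lower (7.72%). A slope on log2(Krt12 FPKM + 1) over all 30 samples called 796 genes (4.76%), 553 higher (3.30%) and 243 lower (1.45%). With the time point as a term 102 genes were called (0.609%), 87 higher (0.520%) and 15 lower (0.0896%), and 84 and 10 of these were among the calls without the term. All 538 and all 196 kept their sign with that term.

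Among corneal epithelial products, 12 of 13 genes were higher, with a median difference of 1.82 in log2(FPKM + 1), against 0.01 over all genes tested. The count was 7 with the time point as a term and 9 with the levels of rods, muscle, oligodendrocytes and stroma as terms. The genes share their tissue with Krt12, so this is a description of what travels with it. Lypd2, a Ly6-type surface protein, had 831 to 2152 FPKM in the high group (median 1523) and 2.91 to 271 FPKM in the low group (median 132). Its difference was 4.45 (SE 0.66, adjusted p = 0.00032). Slurp1, a secreted Ly6-type peptide of cornea and skin, had 417 to 1377 FPKM (median 586) against 6.27 to 212 FPKM (median 43.4), a difference of 4.01 (SE 0.48, adjusted p = 2.78e-05). Aldh3a1, the aldehyde dehydrogenase that accumulates in mouse cornea, had 1933 to 3296 FPKM (median 2742) against 147 to 1064 FPKM (median 478), a difference of 2.65 (SE 0.29, adjusted p = 7.95e-06). In all 3 genes every high sample was above every low sample. Psca, another Ly6-type protein, showed the same separation, with 340 to 796 FPKM against 20.7 to 298 FPKM. Psca, Slurp1 and Lypd2 lie in this order in 1 stretch of chromosome 15 in GENCODE M21 (GRCm38, 74714839 to 74734329), with Them6 between Psca and Slurp1. Ly6d, also a Ly6-type gene, was listed at 0 in 8 of 10 low samples and in 4 of 10 high samples, and it was not called. Its highest value was 5.56 FPKM in the high group and 10.1 FPKM in the low group, in ZT19 replicate 3. Tkt, a transketolase abundant in mouse cornea, had 375 to 796 FPKM against 88.8 to 493 FPKM, a difference of 1.80 (SE 0.23).

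Slurp1 and Aldh3a1 did not overlap between the groups, so within a time point they could not overlap either. Their values there are a description and no further test. Within ZT4, Slurp1 had 1377 and 581 FPKM in the 2 high samples and 90.5, 92.6 and 29.8 FPKM in the 3 low samples. Within ZT14, Aldh3a1 had 2141 and 1933 FPKM in the 2 high samples and 1064 and 781 FPKM in the 2 low samples. With the time point as a term Slurp1 differed by 3.32 (adjusted p = 0.0155) and Aldh3a1 by 2.48 (adjusted p = 0.0109), while Lypd2 differed by 4.08 with an adjusted p of 0.0657.

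Among the surface keratins the picture was mixed. Of 11 tested keratins besides Krt12, 3 were higher and none lower, with a list median of 0.84. Krt5, the basal keratin of stratified epithelia, had 1590 to 3235 FPKM in the high group (median 2378) and 261 to 2410 FPKM in the low group (median 556), a difference of 1.94 (SE 0.28, adjusted p = 0.000246). Krt6a, a stress-inducible keratin with close paralogs that reads may not separate, had a difference of 1.68 (SE 0.27), and Krt78 one of 1.47 (SE 0.29). None of the 3 passed once the time point was a term, with adjusted p of 0.0533 for Krt5, 0.0521 for Krt6a and 0.164 for Krt78; 4 of the 11 keratins then had an unadjusted p below 0.05. Krt13 and Krt4, a keratin pair of non-cornified epithelia, did not pass: Krt13 had medians of 840 and 378 FPKM (adjusted p = 0.0877) and Krt4 had medians of 248 and 170 FPKM (adjusted p = 0.685). Krt14 (adjusted p = 0.132), Krt15 (0.152) and Krt19 (0.652) did not pass either. In each of these 5 keratins the highest low-group value belonged to ZT14 replicate 2, which had 1956 FPKM of Krt13, 1256 FPKM of Krt4 and 578 FPKM of Krt14. Without that sample Krt13 (difference 1.17, adjusted p = 0.00206), Krt14 (1.23, 0.0044) and Krt15 (1.09, 0.0051) passed, and Krt4 (0.69, 0.297) and Krt19 (0.71, 0.31) did not.

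A fit with the sample's log2(Krt15 FPKM + 1) as a term, chosen after the Krt15 values were seen, called 171 genes (1.02%), 153 higher (0.914%) and 18 lower (0.108%). All 153 and 17 of the 18 were among the calls without the term. Slurp1 then differed by 3.74, Lypd2 by 3.84 and Aldh3a1 by 2.27, all 3 past the threshold, and 11 of 13 corneal products remained higher. The difference of Krt14 came to 0.11 and that of Krt13 to 0.21, while Krt4 (-0.63), Krt19 (-0.62) and Krt17 (0.20 without the term, -0.62 with it) were among the surface list genes that changed sign, with adjusted p of 0.222, 0.171 and 0.511.

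**Figure D3:**
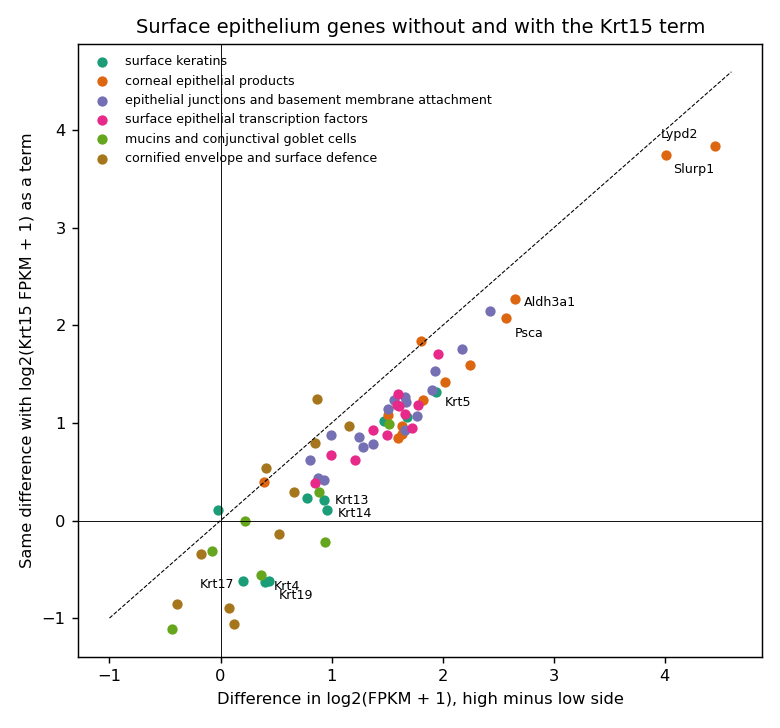
Differences in log2(FPKM + 1) between Krt12-high and Krt12-low samples for the surface epithelium genes, without (x axis) and with (y axis) the Krt15 level as a term, coloured by list, with a dashed line of equality. Slurp1 (4.01 and 3.74) and Lypd2 (4.45 and 3.84) stay near the line, while some genes, Krt4, Krt19 and Krt17 among them, fall below 0.

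Of 17 genes of desmosomes, tight junctions and basement membrane attachment, 14 were higher, with a median of 1.56. Dsp, the desmosomal plaque protein desmoplakin, had 95.3 to 164 FPKM (median 120) against 17.1 to 125 FPKM (median 28.6), a difference of 1.93 (SE 0.24, adjusted p = 4.45e-05). The groups met only through ZT14 replicate 2, the low-group sample at 125 FPKM. Dsc3, a desmosomal cadherin, did not overlap between the groups (39.8 to 67.1 against 4.92 to 38.4 FPKM). Col17a1, the hemidesmosome collagen, had medians of 128 and 24.5 FPKM but overlapped, since ZT14 replicate 3 had 190 FPKM. Itgb4 and Lamb3, partners of Col17a1 in epithelial anchorage, were among those not called. Of the 17, 5 were called with the time point as a term, and 15 were then higher at an unadjusted p below 0.05 by limma.

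Of 12 transcription factors of surface epithelia, 11 were higher, with a median of 1.59. Trp63, a regulator of stratified epithelia, had 11.5 to 27.6 FPKM (median 19.9) against 2.56 to 18.9 FPKM (median 5.69). Its difference was 1.60 (SE 0.27, adjusted p = 0.000838). Klf4, a Kruppel-like factor of differentiating epithelia, had medians of 162 and 42.4 FPKM. Klf5 changed least of those called (0.85, SE 0.24, adjusted p = 0.046), and Tfap2a was not called. Of the 12, 1 was called with the time point as a term, and all 12 were then higher at an unadjusted p below 0.05 by limma.

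Few markers of conjunctiva and of cornified skin passed the test. Of 7 tested genes for mucins and goblet cells 1 was higher, Muc20, with 28.8 to 61.9 FPKM against 6.54 to 60.6 FPKM; its annotated exons overlap those of Muc4 on the other strand. Muc4, a membrane mucin, had medians of 215 and 112 FPKM and was not called (adjusted p = 0.112). Of 10 tested genes for the cornified envelope and surface defence 1 was higher, involucrin (Ivl), which stayed at 3.03 FPKM or below in the high group. Medians were 0.36 and 0.47 for these lists. Neither Muc20 nor Ivl was called by limma with the time point as a term, and 2 genes of each list then had an unadjusted p below 0.05.

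Among called genes outside the lists, the largest difference was that of Fam83a (3.78). Aqp5, the water channel of corneal epithelium and glands, had 511 to 1098 FPKM (median 858) against 33.2 to 312 FPKM (median 108), a difference of 3.11 (SE 0.33, adjusted p = 7.27e-06) without overlap. Tmprss11d, a transmembrane serine protease of airway and other epithelia, had 14.1 to 47.2 FPKM against 0 to 5.49 FPKM, a difference of 3.70 (SE 0.33, adjusted p = 1.26e-06). Tmprss11a, its neighbour on chromosome 5, had medians of 122 and 11.4 FPKM, also without overlap. Both proteases passed with the time point as a term, as did Aqp5 (2.95, adjusted p = 0.00737).

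Fam83a, with 141 to 250 FPKM against 0 to 56.0 FPKM, was separated in the same way. So was Mgarp, a mitochondrial protein, with 504 to 920 FPKM against 26.7 to 273 FPKM. Mal2, a protein of apical membrane traffic, had medians of 156 and 23.4 FPKM. The remaining called genes with the largest upward differences began with Ly6g6c (3.43), Fam25c (3.41), Gm10238 (3.31) and Fanca (3.01). Adtrp (2.80), Lce3a (2.79), Dsg1a (2.79) and Npy (2.76) came next. Among abundant called genes the remaining ones were 2610528A11Rik (2.70), Urah (2.53) and Syt8 (2.51). Gm10238 and Lce3a were listed at 0 in 8 of 10 low samples, so no fold is given for them. Fanca shares annotated exon bases with Zfp276 on the other strand, Slurp1 with Them6 and Ly6g6c with Mpig6b, and the counting strand is not given, so their reads may be shared. Dsg1a has close paralogs.

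**Figure D4:**
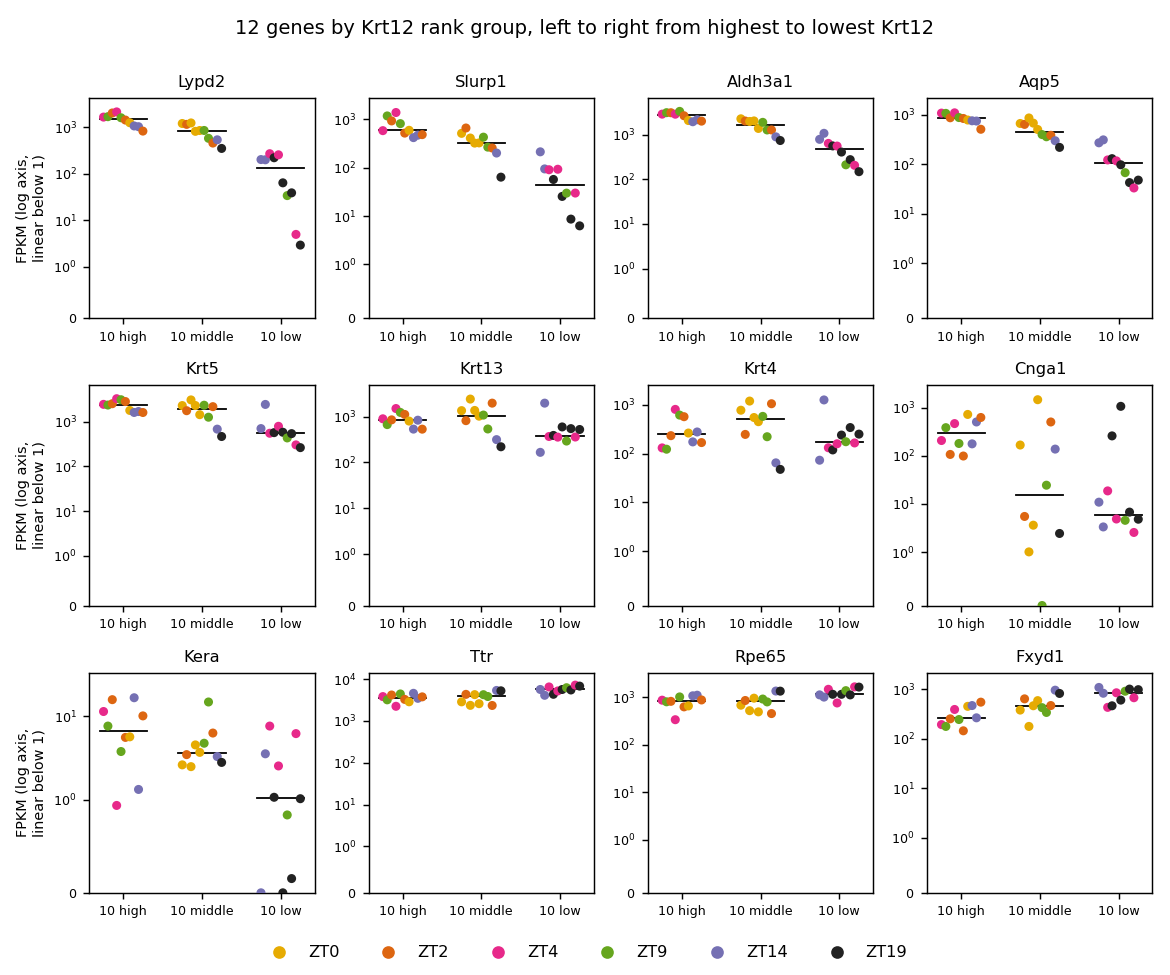
FPKM of 12 genes in the 10 samples highest in Krt12, the 10 in between and the 10 lowest (log axis, linear below 1), ordered within each group from high to low Krt12, coloured by time point, with lines at medians. Lypd2, Slurp1, Aldh3a1 and Aqp5 do not overlap between the outer groups, while Krt4 and Kera do.

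The 10 samples in between took no part in the comparison. In them 511 of the 538 genes called higher had a positive Pearson r with Krt12 (95.0%; 47.7% of all genes tested), and 171 of the 196 called lower had a negative r (87.2%; 52.3% of all genes). These samples differ in time point too, and genes are not independent, so the shares are descriptions. Slurp1 had 63.6 to 659 FPKM in the middle samples and Aqp5 220 to 864 FPKM.

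Of 12 visual cycle genes, all 12 had a negative difference and 6 were called lower, with a median of -0.56. Ttr, the thyroxine and retinol transport protein, had 2240 to 4577 FPKM in the high group (median 3619) and 4106 to 7188 FPKM in the low group (median 5649). Its difference was -0.68 (SE 0.14, adjusted p = 0.0046), and the groups overlapped. Rgr, a retinal G protein coupled receptor, had medians of 2226 and 3165 FPKM, and Rdh5, 11-cis retinol dehydrogenase, had medians of 926 and 1369 FPKM. Rdh5 shares annotated exon bases with Bloc1s1. Rrh and Rlbp1, also called, had differences of -0.61 and -0.56. Rpe65, the retinoid isomerase, had medians of 841 and 1149 FPKM (-0.64, SE 0.19, adjusted p = 0.0521).

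FPKM are shares of a total, and in bulk tissue fewer cells of a type cannot be told apart from less RNA per cell. After rescaling without the 6 surface lists, 11 of 12 visual cycle genes had a negative difference and 2 were called, and on the TPM scale, with equal totals in all samples, 3 were. With the time point as a term Ttr differed by -0.72 (adjusted p = 0.128) and Rgr by -0.68 (adjusted p = 0.18). Of 14 RPE transport and identity genes 4 were called lower, the lactate carriers Slc16a8 (-0.59) and Slc16a1 (-0.47), the carbonic anhydrase Car14 (-0.42) and keratin 8 (Krt8, -0.58). Of 11 melanogenesis genes 1, Mlph, was called lower (-0.60), and medians were -0.45 and -0.44 for these lists. On both other scales Slc16a8 alone of these 5 was called. None of the 5 was called by limma with the time point as a term, nor was any visual cycle gene; at an unadjusted p below 0.05 there were then 9 lower visual cycle genes, 7 lower transport and identity genes and 5 lower melanogenesis genes.

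**Figure D5:**
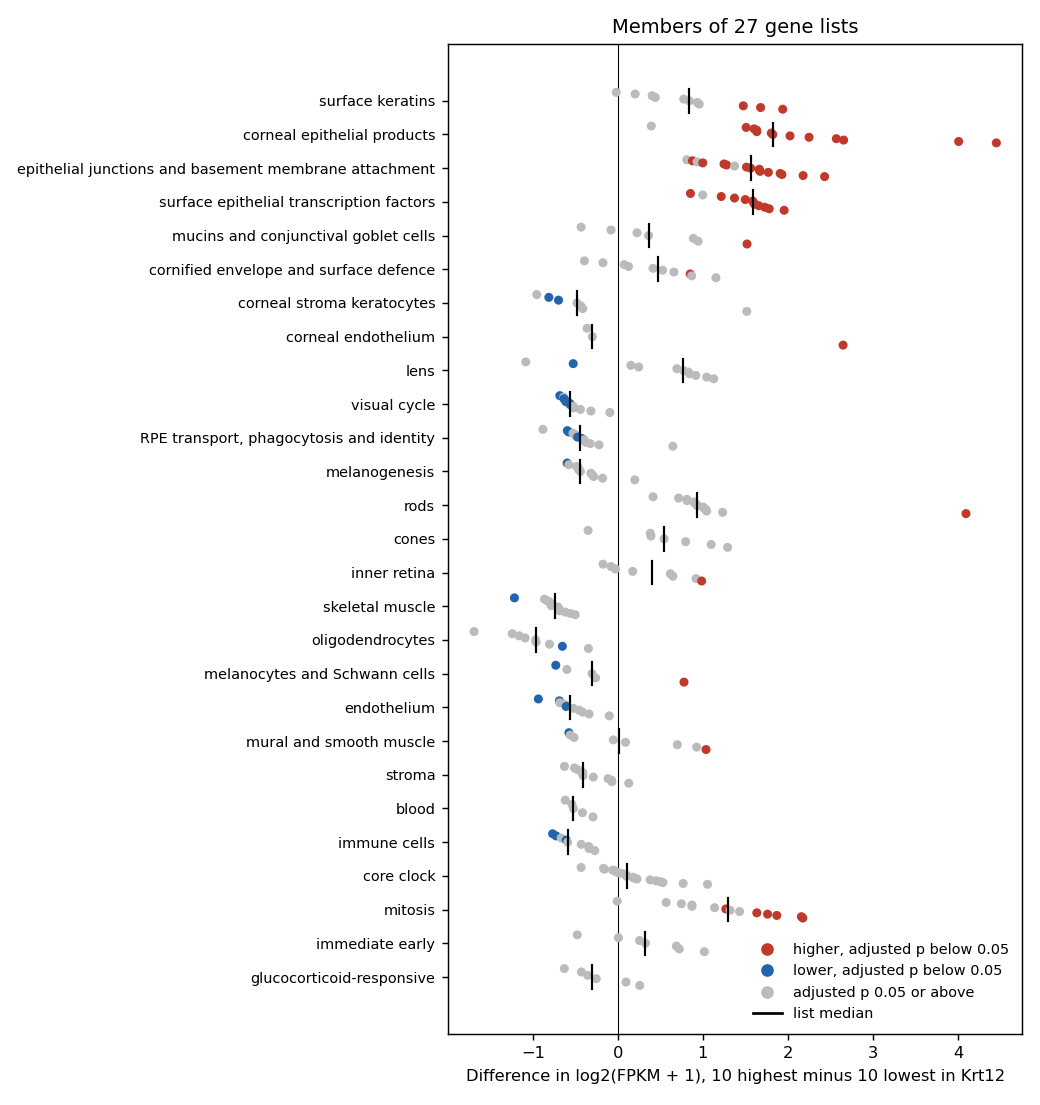
Differences in log2(FPKM + 1) between Krt12-high and Krt12-low samples for members of 27 gene lists; each dot is a gene, red or blue where the limma adjusted p is below 0.05, with a line at the list median. Corneal products, junctions, transcription factors and mitosis genes lie to the right. Oligodendrocyte (median -0.97), muscle (-0.75), immune (-0.59), endothelial (-0.57) and visual cycle genes (-0.56) are among those to the left.

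Markers of other eye tissues overlapped widely between the groups, but the medians of their sums differed. Summed muscle markers ranged over 2555 to 15276 FPKM in the high group (median 5492) and 4045 to 30292 FPKM in the low group (median 11081). All 14 had a negative difference, 8 of them at an unadjusted p below 0.05 by limma, and 1, Mybpc2, was called lower. Summed oligodendrocyte markers ranged over 153 to 4341 FPKM (median 1577) against 202 to 9117 FPKM (median 4675). All 9 had a negative difference, and 1, Ermn, was called lower. Mobp, a myelin gene, had medians of 190 and 663 FPKM (adjusted p = 0.414). With the time point as a term the oligodendrocyte median was -2.29. Of the 9, 7 were then lower at an unadjusted p below 0.05 by limma and 0 were called. Summed rod markers ranged over 324 to 6970 FPKM (median 4053) against 266 to 7567 FPKM (median 574), and all 14 had a positive difference. With the levels of rods, muscle, oligodendrocytes and stroma as 4 terms 132 genes were called (0.789%), 125 higher (0.747%) and 7 lower (0.0418%). The part of these tissues in the lower side of the comparison was otherwise not tested.

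Cnga1, the alpha subunit of the rod cyclic nucleotide-gated channel, was the 1 rod gene called. In the high group it had 99.4 to 728 FPKM (median 298), while in the low group 8 samples had 2.56 to 18.7 FPKM and ZT19 replicate 4 and ZT19 replicate 1 had 261 and 1073 FPKM. Its difference was 4.09 (SE 0.85, adjusted p = 0.00611), and 13 other rod genes were not called, with differences of 0.41 to 1.23. Cnga1 passed with the time point as a term (adjusted p = 0.0297), and with the tissue levels as terms it did not (2.62, adjusted p = 0.082).

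Of 10 endothelial genes 3 were lower, Eng (-0.94), Emcn (-0.69) and Plvap (-0.61). Of 9 immune genes 3 were lower, the macrophage genes Lyz2 (-0.77), C1qa (-0.73) and Csf1r (-0.61). On the TPM scale and after rescaling without the surface lists, Eng and Lyz2 were still called and the other 4 were not. All 6 missed the threshold by limma with the time point as a term, where 5 endothelial and 4 immune genes were lower at an unadjusted p below 0.05. Of 7 keratocyte genes 2 were lower, Prelp (-0.81) and Cd34 (-0.70). Kera, the keratocyte proteoglycan keratocan, went the other way with medians of 6.62 and 1.05 FPKM and was not called (1.52, adjusted p = 0.0726).

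Slc4a11, a solute carrier of corneal endothelium, was called higher, with 6.71 to 34.2 FPKM against 0 to 10.7 FPKM. Its difference was 2.65 (SE 0.41, adjusted p = 0.000475). The 2 other genes of corneal endothelium, Col8a1 and Col8a2, went the other way, the lowest at -0.36, and were not called. Of these 2, 1 had an unadjusted p below 0.05 by limma. Notch3 (1.04) was higher and Rgs5 (-0.58) lower among 8 mural genes, and Erbb3 (0.78) was higher and Sox10 (-0.73) lower among 5 genes of melanocytes and Schwann cells. Of 11 lens genes 1, Cryab (-0.53), was called lower, while 9 had a positive difference, with a list median of 0.77, and 0 were called higher. Of 8 inner retina genes 1, Tfap2b (0.99), was higher. None of 7 cone, 12 stroma, 5 blood, 7 immediate early or 6 glucocorticoid-responsive genes was called by limma; at an unadjusted p below 0.05 there were 5 lower stroma genes, 2 higher immediate early genes and 0 in the other 3 lists. None of the 20 core clock genes was called either, at an adjusted p below 0.05 by limma; 2 of them had an unadjusted p below 0.05.

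Of 14 mitosis genes 6 were higher and 8 were not called, with a median of 1.29. Ccnb1, the mitotic cyclin, had 1.98 to 7.70 FPKM against 0 to 2.74 FPKM, a difference of 1.76 (SE 0.29, adjusted p = 0.000886). Pbk, a mitotic kinase, had 1.17 to 18.6 FPKM against 0 to 3.43 FPKM and was listed at 0 in 6 of 10 low samples, 4 of them from ZT19. Pbk was listed at 0 in all 5 mice of ZT19 and had 7.63 to 19.8 FPKM at ZT0; no high sample was from ZT19 and no low sample from ZT0, so time point and Krt12 level cannot be told apart here. The other called ones were Birc5 (2.16), Ube2c (1.87), Top2a (1.63) and Ccnb2 (1.27). Of the 14, 2 were called with the time point as a term, Ccnb1 (1.98, adjusted p = 0.0329) and Ube2c (2.12, adjusted p = 0.0396).

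Among called genes outside the lists, the lower side was led by Pigz (-1.90), St6galnac3 (-1.75), Ccdc13 (-1.55), Etnppl (-1.52), Pamr1 (-1.47) and Fam26f (-1.46). Fxyd1 (-1.39), Gjb6 (-1.38), Fam69c (-1.33), Il17d (-1.31), Ptpru (-1.30) and Gm42644 (-1.29) followed. ZT14 replicate 3, the library set apart by its genes at 0, held the highest low-group value of several. These were Pamr1 (154 FPKM), Ptpru (94.1), Etnppl (68.0), St6galnac3 (45.1), Il17d (28.5) and Fxyd1. In Pigz, Ccdc13, Fam26f, Gjb6, Fam69c and Gm42644 another low sample was highest. Fxyd1, a regulator of the sodium pump, had 145 to 548 FPKM in the high group (median 259) and 430 to 1087 FPKM in the low group (median 839). Its difference of -1.39 (SE 0.24, adjusted p = 0.00119) also passed with the time point as a term (adjusted p = 0.0456). Mt3, a metallothionein of neural tissue, had medians of 124.0 and 261 FPKM. Other abundant genes called lower were Chil1 (-1.02), Dusp3 (-1.01), Tbc1d17 (-1.01), Comp (-1.01), Iqsec1 (-0.98) and Apod (-0.98). ZT14 replicate 3 was the highest low sample in Dusp3, Tbc1d17 and Apod, and not in Chil1, Comp, Iqsec1 or Mt3.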

How the data were processed

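RNA sequencing of 30 mouse RPE samples was deposited by the authors as a table of FPKM values with 51904 Ensembl genes in rows and decimal commas. The authors' unit is read from the name of the table. Per the submitters' processing notes, STAR, Cufflinks, DESeq2 and the build mm10 were used; roles, versions and the counting strand are not given in the sources used here. No counts were used, so no count model was fitted here.

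Samples were ranked by Krt12 FPKM, and the 10 highest were compared with the 10 lowest. A gene was kept where 5 or more of the 30 samples reached 1 FPKM (16741, or 16740 without Krt12). log2(FPKM + 1) was tested with limma 3.58.1 in R 4.3.3 (trend, two-sided, Benjamini-Hochberg over all genes, threshold 0.05), and the code was tested on simulated data. A difference on this scale understates the change of low genes. Krt12 was tested for time and eye with 100000 permutations, adjusted over both. Depth (12.4 to 23.0 M reads per sample, M: mega) was estimated from steps of low FPKM, using gene lengths from GENCODE M21, in which 51625 IDs matched; with 199 bases off the length 11009 of 99588 values fell in the narrow peak, against at most 5843 for the other lengths tried. A value of 0 can be a failed estimate.

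Time of day from the labels, eye, runs of animal numbers, tissue scores and scaling were varied as alternatives. Replicate numbers follow accession order and name samples only; samples are separate mice. The members, the 27 lists and the rule for named genes were chosen with earlier results of these data known. Named were any member of the 6 surface lists, the 12 largest called differences in each direction outside the lists, in other lists the called members and the extremes, called clock genes, and the 8 largest in each direction among called genes with a mean FPKM of at least 50. Promoter windows are from RefSeq (GRCm38.p6).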

Additional observations from a re-analysis of the deposited data

Results flagged for a closer look

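Of 128 groups of values checked for a single sample far from the rest, 29 had one. The nominal rate is about 1 in 20 for independent, normally distributed values; these genes share samples and vary together, so the count is not read against that rate. In the Krt12-low group ZT14 replicate 2 was the far one for 14 of the 23 surface list genes checked: Krt15 5970 FPKM (others at most 1483), Calml3 1864 (783), Krt5 2410 (782), Krt6a 533 (152), Krt78 8.17 (3.63), Krt14 578 (173), Krt13 1956 (594), Krt4 1256 (341), Krt19 813 (321), Psca 298 (156), Dsp 125 (34.0), Klf4 175 (96.9), Muc20 60.6 (18.2) and Muc4 485 FPKM (231). It was also the far one for Erbb3, a gene of the melanocyte and Schwann cell list, at 19.7 FPKM (10.2). The 6 surface lists made up 2.87% of its summed FPKM, against at most 0.905% in the other 9 low samples. Its Krt12 of 564 FPKM was the second highest of the low group.

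ZT14 replicate 3 was the far low-group sample for Slurp1 (212 FPKM, others at most 94.1), Tkt (493, 256), Col17a1 (190, 71.7) and the Krt12 to Krt15 ratio (1.16, 0.537). It also had 12754 genes above 0 (others at least 16723) and 557 genes listed at 0, far from the rest both among the low samples and among the 5 samples of ZT14. ZT0 replicate 4 had the most genes above 0 in the high group, at 19374 against 17143 to 18075.

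Single samples were also far from the rest of the low group for Slc4a11 (ZT4 replicate 2, 10.7 FPKM), Ly6d (ZT19 replicate 3, 10.1 FPKM, others at most 0.18), Cnga1 (ZT19 replicate 1, 1073 FPKM) and Mt3 (ZT19 replicate 3, 518 FPKM). Among the 5 samples of ZT4, ZT4 replicate 1 had 4240 FPKM of Krt15, with the others at 835 to 1639 FPKM.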

How the results depend on the processing

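The count of genes that differed was 734 (538 higher, 196 lower) and stayed within 1.5 times of this under other pseudocounts, filters and scalings and with an eye term, animal number runs or a slope over 30 samples. It was 102 (87 higher, 15 lower) with the time point as a term, 132 (125 and 7) with tissue scores as terms and 171 (153 and 18) with the added Krt15 term. The lower count alone moved to 130 without a mean-variance trend, 101 with animal number runs, 101 on the TPM scale and 79 with scaling without the surface lists. The share of calls that were higher was 73.3%, but 85.7% on the TPM scale and 89.2% with scaling without the surface lists. The median difference over all genes was 0.07 and 0.10 on these scales, against 0.01 in the main fit. Leaving out 1 sample gave 511 to 956 calls, 399 to 693 higher and 111 to 263 lower. The lower count was 112, 118, 117, 127, 111, 119 and 125 without ZT4 replicate 5, ZT9 replicate 2, ZT2 replicate 1, ZT4 replicate 3, ZT9 replicate 1, ZT4 replicate 4 and ZT19 replicate 3. Without ZT14 replicate 3 it was 547 higher and 188 lower. The cause of these shifts was not tested.

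The F statistic of Krt12 over time points was 2.33 (permutation test, adjusted p = 0.158) on FPKM without a log. It was 2.59 to 4.79 when 1 sample was left out. The adjusted p of that test was above 0.05 without ZT19 replicate 2 (0.0562) or ZT19 replicate 3 (0.106). The eye difference was -0.74 to 0.14 when 1 sample was left out. Of 93 called genes named in the text, 58 were no longer called with the time term, 59 with tissue scores and 51 with the Krt15 term, and 27 were lost at least once when 1 sample was left out. Signs turned for Krt4 (-0.63), Krt19 (-0.62) and Krt17 (-0.62) with the Krt15 term and for Ly6d (-0.036) with a slope on Krt12. No paired analysis was possible because each sample came from a separate mouse. Depth is estimated, so no counting interval is given.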
